A study of Arabidopsis thaliana with 4 samples.

Results

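Small heat shock proteins are chaperones built around an alpha-crystallin domain that bind unfolding proteins and hold them until ATP-dependent chaperones refold them. In Arabidopsis they are encoded by a family of nuclear genes whose products work in the cytosol, the endoplasmic reticulum, mitochondria, plastids and peroxisomes. Most are known for low transcript levels in vegetative tissue at ordinary temperature and for strong induction by heat through heat shock transcription factors. Described here are 9 loci of this family, chosen by name with earlier results of these data known, as measured in roots of 4 genotypes. A member was read where a row of the array was annotated with that gene alone, which was so for 6 of the 9 loci, out of 16548 genes with such a row in the whole data set. The loci AT5G12020 (HSP17.6II), AT5G12030 (HSP17.6A) and AT3G46230 (HSP17.4) had no such row and were not analysed here.

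Total RNA was hybridised to Affymetrix Arabidopsis Gene 1.0 ST arrays, with 1 array each for wild type (WT, accession Col) and the lines CEPD1ox, CEPD2ox and CEPDL2ox, whose names mark overexpression of CEPD family genes. CEPD proteins are small glutaredoxin-like polypeptides known as mobile signals of nitrogen demand. All 4 genotypes were grown at 22 °C in continuous light, without a heat treatment in the labels, and were moved after 7 d to plates containing 10 mM NH4Cl and 10 mM KNO3. Roots were taken at 14 d, and 100 ng of total RNA was labelled for each array. Of the transgenes' promoter and of the number of plants behind an array, the labels say nothing, and WT carried no overexpression label. The question for the small heat shock protein genes is whether their root signals differed between these genotypes.

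With 1 array per genotype neither a spread within genotypes nor a test can be had, so each difference below lacks a replicate check. Values are log2 signals, and a difference of 1 on this scale is 2-fold. A filter value of 2.78, the 25th percentile of all gene values, served as a mark of low signal, and genes that reached it on at least 1 array were kept (13232 genes). No detection call was used, so signals below this value may hold little beyond background, and folds set against them may understate a difference in RNA. Any 2 arrays correlated at a Pearson's r of 0.983 to 0.984 over the rows, which are not independent. CEPD2 was at 9.22 in CEPD2ox against 1.41 in WT, and CEPDL2 at 5.49 in CEPDL2ox against 3.46. CEPD1 was at 3.04 on the CEPD1ox-labelled array against 2.66 in WT, a difference of 0.38, so that its overexpression was not seen there, and that array is called by its label throughout. Of 22 root marker genes, 4 had a row of their own and all of these reached the filter value on every array. The root hair expansin genes EXPA7 and EXPA18 and the peroxidase gene AT5G66390 had mean differences from WT of 0.11, 0.13 and 0.15 over the lines. All 4 root markers, with AT1G68850 as the other one, were above WT on the CEPD1ox-labelled array and in CEPDL2ox and below it in CEPD2ox, with medians of 0.14, 0.24 and -0.06. A further locus with a row, AT5G44020, was left out of this list after values were seen. It departed from that pattern, with differences from WT of -0.01 on the CEPD1ox-labelled array, 0.15 in CEPD2ox and 0.24 in CEPDL2ox. In bulk roots, fewer cells of a type and less RNA per cell cannot be told apart.

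Among the 6 small heat shock protein genes, HSP15.7 was lower than WT on all 3 line arrays, 2.47-fold so in CEPDL2ox, while no other member differed 2-fold between any 2 arrays. Both members with signals above the filter value on every array, AT1G07400 and AT2G29500, lay within 0.38 of WT on the log2 scale. The other members, AT1G53540, AT1G59860 and ATHSP22.0, stayed below the filter value on all 4 arrays. After the filter 3 of 6 members were kept, and HSP15.7 was kept through its WT signal alone.

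**Figure D1:**
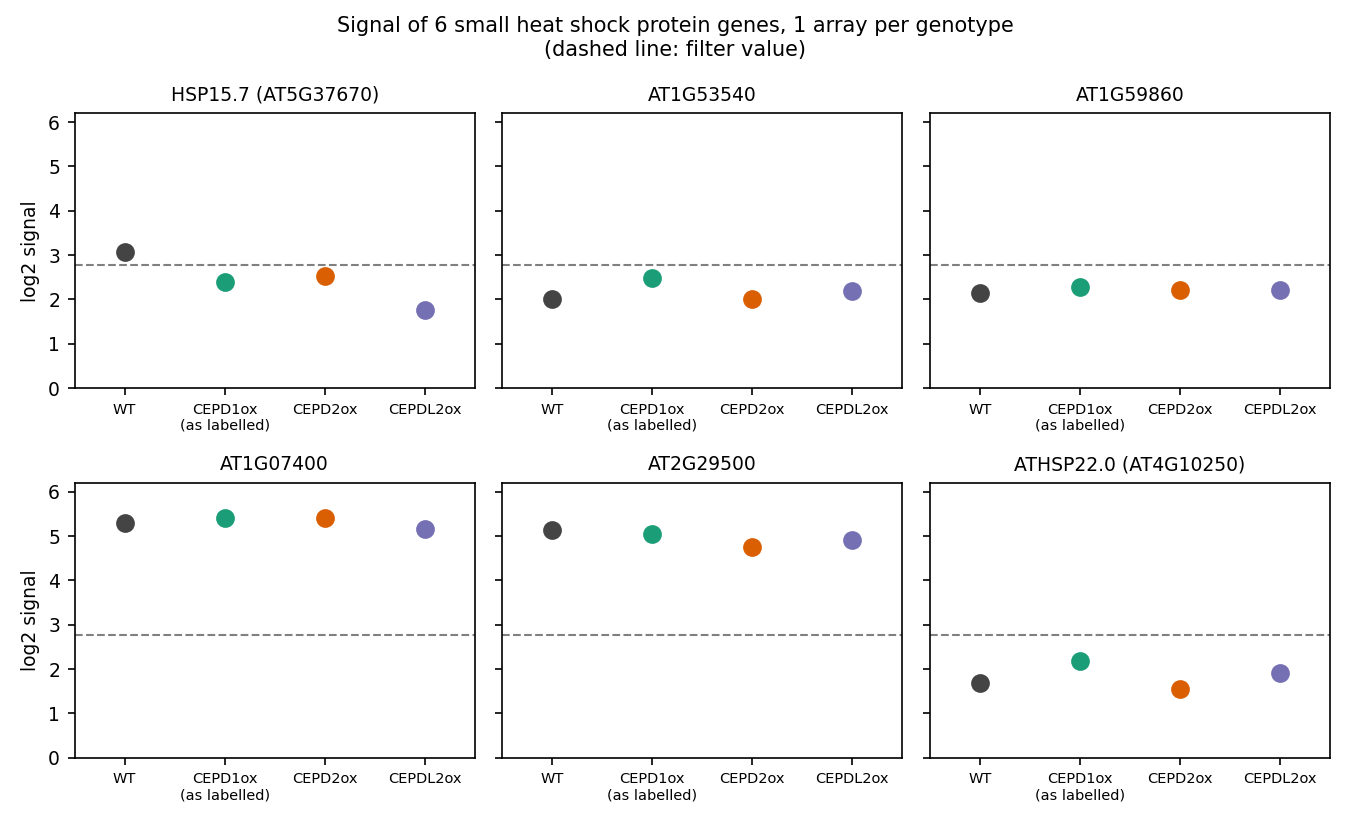
Log2 signal (y axis) of each of the 6 small heat shock protein genes with a row of its own, with 1 point per array and genotype (x axis); the dashed line is the filter value of 2.78. AT1G07400 and AT2G29500 lie above the line on all 4 arrays, HSP15.7 only in WT, and the other 3 genes on none.

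HSP15.7 (AT5G37670) encodes a small heat shock protein known from the peroxisome, where a C-terminal targeting signal directs it. On the log2 scale HSP15.7 measured 3.08 in WT, 2.40 on the CEPD1ox-labelled array, 2.54 in CEPD2ox and 1.77 in CEPDL2ox. WT was thus highest and CEPDL2ox lowest, and the remaining arrays lay between them, 0.14 apart. Against WT the differences were -0.68, -0.54 and -1.31 in the same order of lines, or 1.60-, 1.45- and 2.47-fold lower. Their mean was -0.84 ± 0.41 (SD over 3 lines that share the single WT array, so that it leaves out the error of the WT value). CEPDL2ox also lay below the other lines, by 0.63 against the CEPD1ox-labelled array and by 0.77 against CEPD2ox. Neither the gaps between neighbours in this order nor the gap to WT could be set against a spread, since no genotype had a second array.

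The 2-fold mark was passed by HSP15.7 in CEPDL2ox only, a comparison in which 0.491% of all kept genes were at least 2-fold lower. Among the 1411 kept genes with a mean signal below 3, where HSP15.7 lies with a mean of 2.45, this share was 2.27%. Genes with a mean below the filter value were kept only if at least 1 array reached it. The filter thus widens ranges among these low-signal genes, and how far low signals vary apart from the filter was not examined. A position below WT in all 3 lines by any amount was found in 24.2% of kept genes and in 21.1% of those with low signals. The range of HSP15.7 over the 4 arrays, 1.31, does not depend on which array is taken as reference. A range of at least 2-fold was found in 4.42% of kept genes and in 16.4% of those with low signals. Among kept genes 1.59% had a range at least as wide as that of HSP15.7, and among those with low signals 5.60% did, against median ranges of 0.32 and 0.63. HSP15.7 was 1 of 145 kept genes (1.10%) that reached the filter value on the WT array alone. A gene kept in this way had to be lower in the lines, so its being kept and being lower are not separate observations.

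AT1G07400 and AT2G29500 encode cytosolic small heat shock proteins of class I, the class that forms large oligomers in the cytosol. The log2 signal of AT1G07400 was 5.29 in WT, 5.40 on the CEPD1ox-labelled array, 5.41 in CEPD2ox and 5.17 in CEPDL2ox. CEPDL2ox was lowest, and the CEPD1ox-labelled array and CEPD2ox were highest and almost level. The differences from WT were 0.11, 0.12 and -0.12, and 66.8% of kept genes had a range at least as wide as its 0.24. AT2G29500 was at 5.13 in WT, 5.05 on the CEPD1ox-labelled array, 4.75 in CEPD2ox and 4.92 in CEPDL2ox. It was lowest in CEPD2ox, where the difference from WT was -0.38, with differences of -0.08 on the CEPD1ox-labelled array and -0.22 in CEPDL2ox. Its range of 0.38 was reached by 41.4% of kept genes. The array order of these class I genes differed, with the lowest signal in CEPDL2ox for one and in CEPD2ox for the other.

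AT1G53540 and AT1G59860, also genes of class I, and ATHSP22.0 (AT4G10250), whose product resides in the endoplasmic reticulum, gave only low signals. AT1G53540 was at 2.01 in WT, 2.49 on the CEPD1ox-labelled array, 2.01 in CEPD2ox and 2.18 in CEPDL2ox. AT1G59860 was at 2.14, 2.28, 2.20 and 2.20 on the same arrays. ATHSP22.0 was at 1.68, 2.18, 1.56 and 1.91. In all 3 genes the CEPD1ox-labelled array was highest, by 0.48, 0.14 and 0.50 over WT, at signals below the filter value on every array. The WT and CEPD2ox values of AT1G53540 were identical, as were the CEPD2ox and CEPDL2ox values of AT1G59860. Such ties were present in 10.7% of the 3316 genes left out by the filter and in 2.30% of kept genes. Class I genes are close in sequence, and whether their probes read each other's transcripts was not examined.

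The median difference from WT over the 3 kept members was -0.08 on the CEPD1ox-labelled array, -0.38 in CEPD2ox and -0.22 in CEPDL2ox, against 0.00 in each line over all kept genes. Over all 6 members with a row it was 0.13, -0.06 and -0.03. The sign of the median thus depended, on the CEPD1ox-labelled array, on whether the members with low signals were counted. HSP15.7 was kept through its WT signal alone and so had to be lower in the lines. The medians of the kept members, each the value of AT2G29500, therefore depend in part on the filter. No member was at least 2-fold higher in any line, where 0.733%, 0.506% and 0.771% of kept genes were, and none was 2-fold lower on the CEPD1ox-labelled array or in CEPD2ox, where 0.476% and 0.393% of kept genes were.

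**Figure D2:**
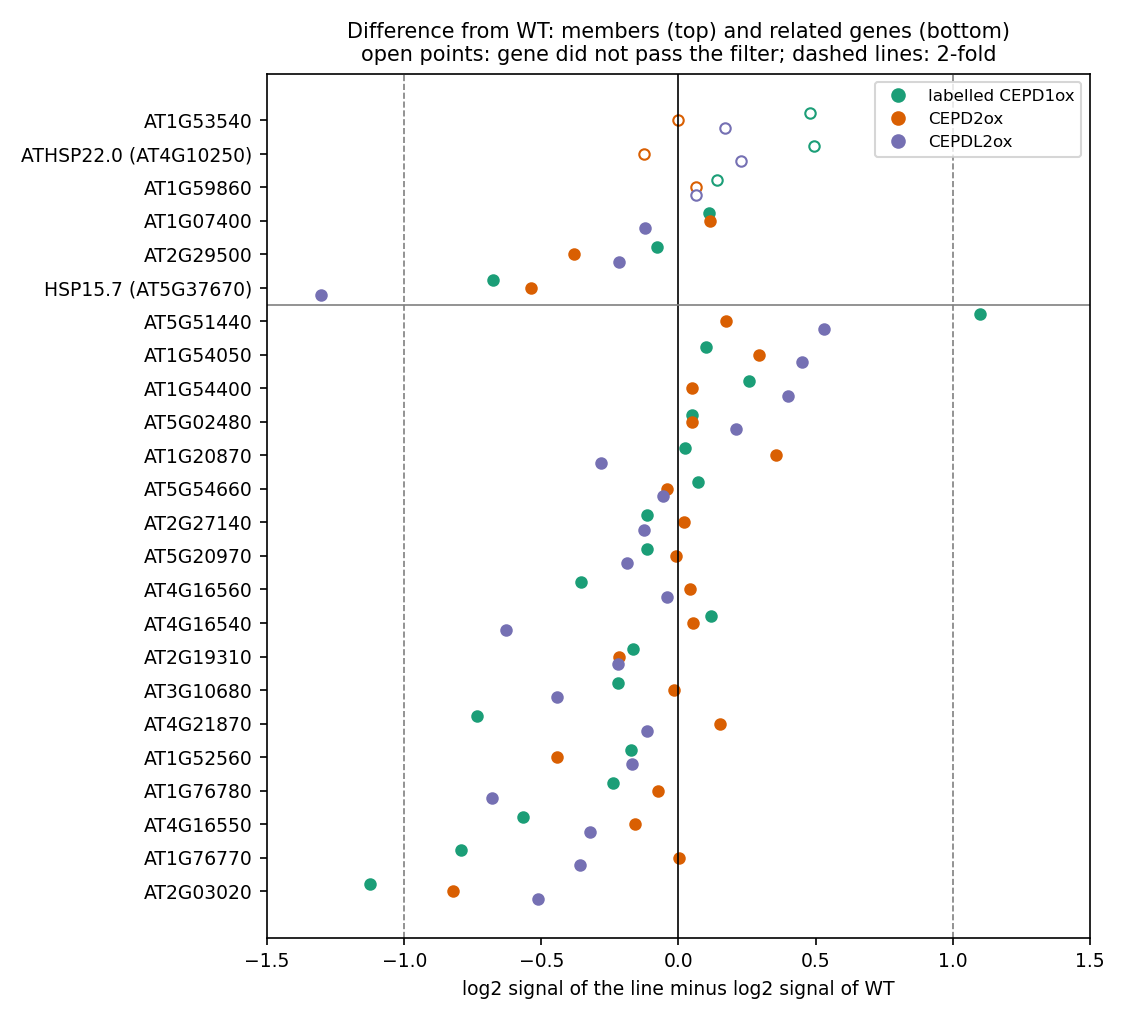
Difference in log2 signal between each line and WT (x axis) for the 6 members (above the grey line) and 18 related genes with an alpha-crystallin type domain (below it), 1 row per gene and 1 point per line; open points mark genes that did not pass the filter, and dashed lines mark 2-fold. HSP15.7 in CEPDL2ox, at -1.31, is the only member past a dashed line, and of the related genes AT5G51440 and AT2G03020 pass one, both on the CEPD1ox-labelled array.

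The rest of the family was read from a list of 22 further loci that encode small heat shock proteins or proteins with the same type of domain, of which 18 had a row of their own and all of these passed the filter. Of the 18, 7 were below WT and 4 above it in all 3 lines, by any amount, against 24.2% and 24.3% of all kept genes. On the CEPD1ox-labelled array 1 of the 18 was at least 2-fold higher and 1 lower, against 0.733% and 0.476% of all kept genes. In CEPD2ox and CEPDL2ox none was past 2-fold. There 0.506% and 0.771% of all kept genes were higher and 0.393% and 0.491% lower. AT5G51440, which encodes a mitochondrial small heat shock protein, was at 4.69 in WT, 5.79 on the CEPD1ox-labelled array, 4.86 in CEPD2ox and 5.22 in CEPDL2ox. It was thus higher than WT on each line array, by 1.10, 0.17 and 0.53. AT2G03020, a gene of an HSP20-like protein, was at 3.19 in WT and at 2.07, 2.37 and 2.68 in the lines in the same order. Like HSP15.7, it reached the filter value only in WT, and its differences were -1.13, -0.82 and -0.51. Its line order differed from that of HSP15.7, with CEPDL2ox nearest to WT and the CEPD1ox-labelled array lowest, where HSP15.7 was lowest in CEPDL2ox and nearest to WT in CEPD2ox. The median difference of the 18 genes was -0.14 on the CEPD1ox-labelled array, 0.01 in CEPD2ox and -0.18 in CEPDL2ox.

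Heat shock transcription factors, the activators and repressors of this gene family, and HSP90 chaperones could not be read. The first list, of 22 loci, also held HSBP, a protein that binds these factors. None of its 22 loci and none of the 7 HSP90 loci had a row of its own. Neither did HSP101, the disaggregase that works on proteins held by small heat shock proteins. Of 18 HSP70 chaperone loci, which take over proteins from small heat shock proteins, 5 passed the filter, with 1 past 2-fold. This was BIP1, an HSP70 of the endoplasmic reticulum, at 2.47 in WT, 2.77 on the CEPD1ox-labelled array, 2.86 in CEPD2ox and 3.65 in CEPDL2ox. Its difference of 1.18 in CEPDL2ox is set against a WT signal below the filter value, and BIP1 has a close paralog. Of all kept genes 0.771% were at least 2-fold higher in that line. BIP1 reached the filter value in CEPD2ox and CEPDL2ox only, so it was kept through the arrays where it was highest. The median difference of the HSP70 genes was 0.20, 0.08 and 0.02 in the order of lines above.

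Of the chaperonin genes, Cpn60beta2 and Cpn60beta4 of the plastid were read, with mean differences from WT of 0.12 ± 0.15 and -0.13 ± 0.08 (SD over 3 lines, as above). Of 19 co-chaperone loci of HSP70 and HSP90, 9 passed the filter and none was past 2-fold. ATERDJ3B, a J-domain protein of the endoplasmic reticulum, had a mean difference of 0.38 ± 0.12. AT4G02450, a p23 co-chaperone of HSP90, had one of 0.24 ± 0.04, and AT5G48570, the heat-induced immunophilin ROF2, one of -0.15 ± 0.22. The list's medians were 0.08, -0.01 and 0.07. Of 12 other genes known for induction by heat, 3 passed the filter and none was past 2-fold. HSA32, which extends acquired thermotolerance, was at 4.48 in WT, 4.48 on the CEPD1ox-labelled array, 4.27 in CEPD2ox and 4.11 in CEPDL2ox. AT1G72660 had a mean difference of 0.33 ± 0.59 and AT3G07090 one of 0.13 ± 0.08. Together these lists of related, chaperone and heat-induced genes held 37 kept genes of 113 loci. On the CEPD1ox-labelled array 1 of them was at least 2-fold higher and 1 lower. In CEPD2ox there was none in either direction, and in CEPDL2ox 1 was higher and none lower. Of the genes counted, AT2G03020 and BIP1 were kept through the arrays where they were highest. Of all kept genes 0.733% were higher and 0.476% lower on the CEPD1ox-labelled array. The shares were 0.506% and 0.393% in CEPD2ox, and 0.771% and 0.491% in CEPDL2ox.

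**Figure D3:**
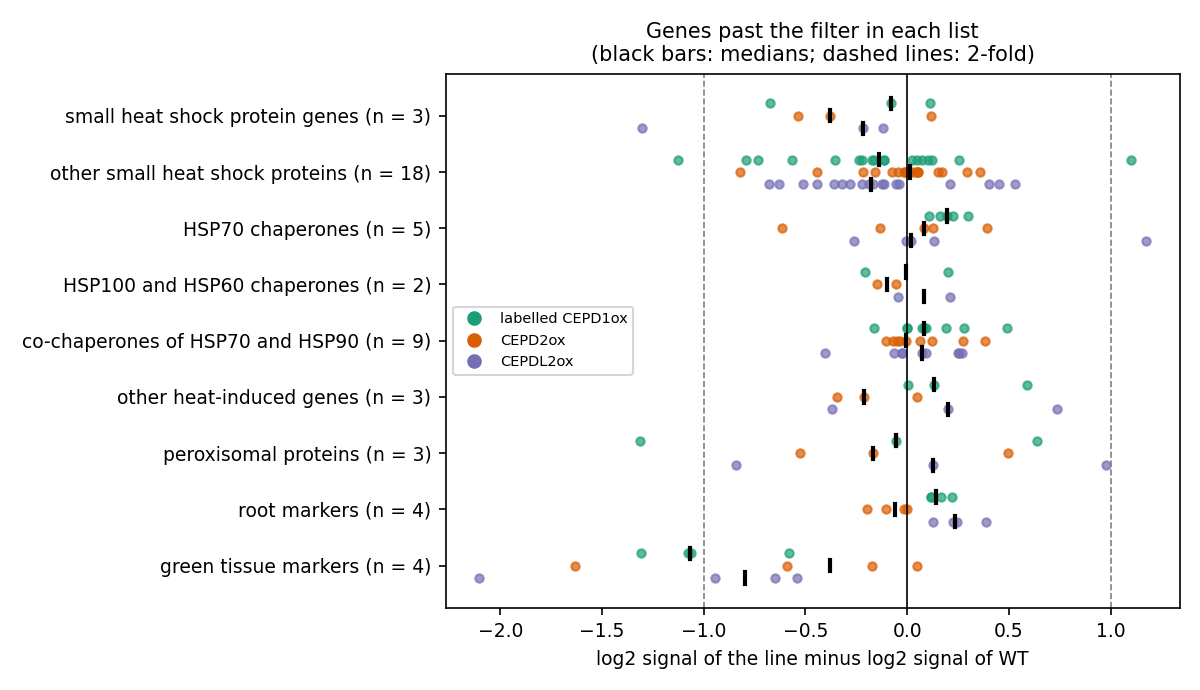
Difference in log2 signal between each line and WT (x axis) for the genes of each list that passed the filter (y axis, with their number), with 1 point per gene and line, black bars at the median of each line and dashed lines at 2-fold. Most points of the chaperone lists lie between the dashed lines, and the green tissue markers lie lowest, with a median of -1.07 on the CEPD1ox-labelled array.

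Of 24 marker loci of green tissue, 4 had a row of their own, and 3, 1 and 1 of these were at least 2-fold lower than WT on the CEPD1ox-labelled array, in CEPD2ox and in CEPDL2ox, against 0.476%, 0.393% and 0.491% of all kept genes. PRK, which makes ribulose bisphosphate in the Calvin cycle, was at 4.58 in WT, 3.27 on the CEPD1ox-labelled array, 2.94 in CEPD2ox and 2.47 in CEPDL2ox. SBPASE, the sedoheptulose bisphosphatase of that cycle, was at 4.93, 3.87, 4.34 and 3.99 on the same arrays. PSAE-1, a subunit of photosystem I, was at 3.90, 2.83, 3.95 and 3.36, so that CEPD2ox was level with WT. RCA, the Rubisco activase, named after its values were seen to complete the list, was at 6.31, 5.73, 6.14 and 5.66, within 2-fold of WT in every line. The median difference of the 4 markers from WT was -1.07, -0.38 and -0.80, and 3 of 4 were below WT in all 3 lines, as were 24.2% of all kept genes. Their summed linear signal was 149 in WT against 84.6, 114 and 82.4 in the lines, while that of the 4 root markers was 1817 against 2074, 1765 and 2171. The root sum leaves out AT5G44020, whose signal was above that of each of the 4 on every array. Unlike the sum, AT5G44020 was higher in CEPD2ox than in WT, at log2 signals of 10.68 and 10.53. HSP15.7 and the green tissue markers both had their highest or nearly highest value on the WT array, and the part of green tissue in the HSP15.7 difference was not tested.

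**Figure D4:**
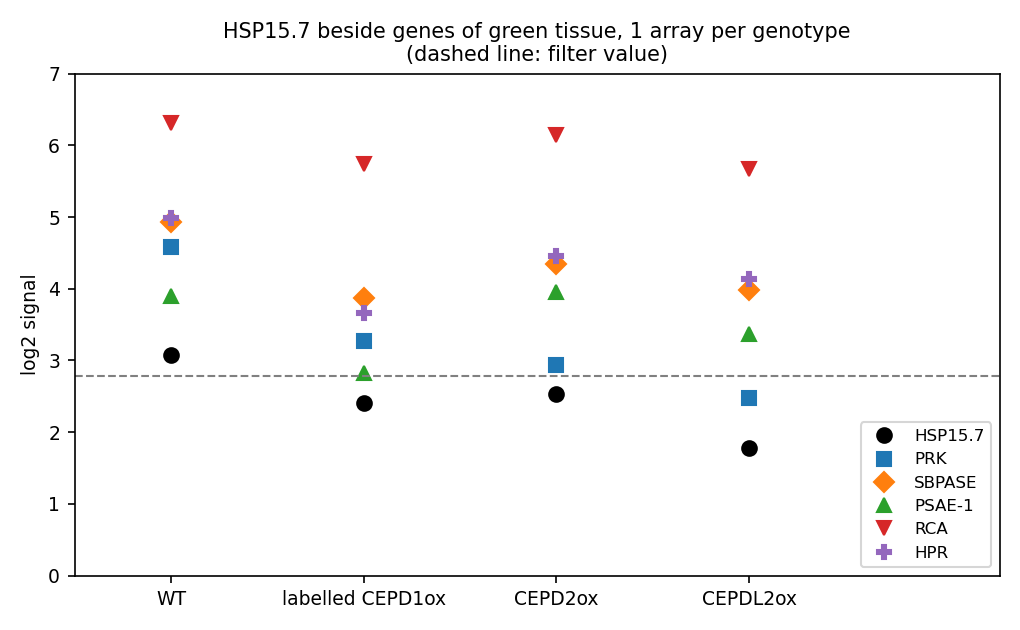
Log2 signal (y axis) of HSP15.7, of 4 green tissue markers (PRK, SBPASE, PSAE-1, RCA) and of the peroxisomal enzyme gene HPR on the 4 arrays (x axis), with 1 point per gene and array and the filter value as a dashed line. HSP15.7, PRK and RCA are highest in WT and lowest in CEPDL2ox, while SBPASE, HPR and PSAE-1 are lowest on the CEPD1ox-labelled array. PSAE-1 is highest in CEPD2ox, at 3.95 against 3.90 in WT.

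Peroxisomal proteins were listed because HSP15.7 works in that organelle, and 3 of 24 loci passed the filter. HPR, the hydroxypyruvate reductase of photorespiration, was at 4.98 in WT, 3.67 on the CEPD1ox-labelled array, 4.46 in CEPD2ox and 4.14 in CEPDL2ox. It was the only gene of the list past 2-fold, with a difference of -1.32 on the CEPD1ox-labelled array. On that array 0.476% of all kept genes were at least 2-fold lower. ICL was above WT in all 3 lines, by 0.64, 0.49 and 0.98, and AIM1 differed by -0.05, -0.17 and 0.13. The list had no common direction, with median differences of -0.05, -0.17 and 0.13, although it is too short to describe peroxisomal genes in general.

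The kept genes whose pattern over the 4 arrays was nearest to that of a member were sought by the distance between log2 values centred on each gene's mean. For HSP15.7 the nearest was AT1G27610, at a distance of 0.18, with signals of 3.13 in WT, 2.50 on the CEPD1ox-labelled array, 2.60 in CEPD2ox and 2.04 in CEPDL2ox. AT1G75890, AT4G31520, AT4G02250 and AT1G06020 followed, at distances of 0.21 to 0.25, and all of these genes were also highest in WT and lowest in CEPDL2ox. For AT1G07400 the nearest were AT1G14590, AT4G24300, AT3G46500, AT4G38650 and AT2G30060, at 0.02 to 0.03. For AT2G29500 they were AT2G15440, AT3G14880, UGT76E12, AT5G63280 and AT1G05710, at 0.02 to 0.04. None of these genes belongs to the small heat shock protein or chaperone lists. The distances, each over 4 arrays, serve only as a description.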

How the data were processed

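The authors' deposited values are log2 signals for each of 38408 rows of the array, and the submitters' processing notes name Affymetrix Expression Console 1.3 as the software. The summarization, the normalization between arrays and the genome build are not stated there, and the log base was inferred from the values (0.431 to 13.8). They were used as deposited. Of the rows, 16722 were annotated with 1 gene, 759 with several and 20927 with none. Loci were matched through the TAIR10.1 gene table, used for names only (16670 rows matched, 52 kept the annotation's name). For 148 genes with several rows, the row with the highest mean was taken. The number of arrays, 1 per group, limits the precision, and no test was possible. Folds of at least 2 were counted against WT, and the counting was tested on simulated data. The simulated noise was the same at every signal level, so this checked the counting and not the error of low signals. The names HSP15.7, CEPD1, CEPD2, CEPDL2 and ROF2, and the roles of loci without a symbol, come from general knowledge of the loci and not from these tables.

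Members and lists (203 loci) were chosen with earlier results of these data known. After values were seen, 11 loci were left out, 1 that the table names as another enzyme and 10 whose role was not sure. In each list the text named genes past 2-fold in any line or, where there was none, the up to 3 with the largest mean difference. AT1G68850, RCA, ICL, AIM1 and the left-out AT5G44020 were named beyond this rule, after values were seen. For members, the 5 nearest genes were named. Shares among genes with a mean signal below 3, and ranges over the 4 arrays, were added after the data were seen. Alternatives were folds of 1.5 and 3, no filter, a filter at the median, a shift of the arrays to 1 median, quantile and cyclic loess normalization (limma 3.58.1, R 4.3.3), and the mean over rows of a gene. Other steps used Python 3.11.15 with pandas 2.3.3. The reference tables held no sequences, so none are shown.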

Additional observations from a re-analysis of the deposited data

How the results depend on the processing

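The count of small heat shock protein genes at least 2-fold lower in CEPDL2ox, 1 (HSP15.7), became 0 at a 3-fold threshold and 0 with a filter at the median, which leaves that gene out. At 1.5-fold, 1 member was lower on the CEPD1ox-labelled array in place of 0. Of the heat and chaperone lists together, at 1.5-fold 2 genes were higher and 3 lower on the CEPD1ox-labelled array, 2 lower in CEPD2ox, and 2 higher and 2 lower in CEPDL2ox. At 3-fold these lists had 0 on the CEPD1ox-labelled array in each direction and 0 higher in CEPDL2ox. With the filter at the median they had 0 lower on the CEPD1ox-labelled array and 0 higher in CEPDL2ox. Shares of all kept genes were not taken at these other thresholds and filters. The counts there cannot be read as more or fewer than among genes in general. The other normalizations moved the 18 differences of the 6 members by at most 0.07 and turned the sign of 0, and HSP15.7 stayed between -1.33 and -1.31 in CEPDL2ox. No paired analysis was possible because each genotype has 1 array. With 1 array and signals near the filter value, a difference of the size seen in HSP15.7 cannot be told from the error of a single array.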
